A study of Mus musculus with 6 samples.

Results

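The mitochondrially encoded genes are the 37 genes carried by mouse mitochondrial DNA: 13 mRNAs, 2 rRNAs and 22 tRNAs. They were found among the 54600 rows of the expression table as the rows whose Ensembl identifier maps to a symbol that starts with "mt-"; the rule itself uses no measured value. The libraries are bulk RNA-seq of mouse liver after 16 weeks of high-fat feeding, which both groups received; a normal diet was not analysed here. One group, called KO below, was labelled as lacking HIF-2α in hepatocytes, and the other, called WT, as wild type, with 3 libraries in each. HIF-2α is an oxygen-regulated transcription factor encoded by Epas1. Sex, age, strain, the promoter that drove the deletion and whether libraries came from separate animals are not stated by the labels, so p-values measure the spread between these libraries, which may be technical. Whole liver holds many cell types besides hepatocytes, the cells in which the label places the deletion.

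Mitochondrial DNA is a small circle that is transcribed from both strands into long RNAs, which are then cut into the separate mRNAs, rRNAs and tRNAs, mostly at the tRNAs that lie between the other genes. Its mRNAs encode core subunits of respiratory complexes I, III and IV and of the ATP synthase (complex V), while complex II and all other subunits are encoded in the nucleus. Hepatocytes are rich in mitochondria, so these transcripts are among the most abundant in liver.

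Neighbouring genes on this circle share bases, which bears on how a read can be assigned. The following sequences show the 3 places where mRNA genes share the most bases, with the shared bases in capitals; all are 5′ to 3′ on the coding strand of each gene, from the GENCODE M21 transcripts of GRCm38 (mm10). The mt-Atp8 and mt-Atp6 genes overlap by 43 bases on the plus strand (chrM:7927-7969), mt-Nd4l and mt-Nd4 by 7 bases on the plus strand (chrM:10167-10173), and mt-Nd5 (plus strand) and mt-Nd6 (minus strand) face each other over 14 bases (chrM:13552-13565). 
mt-Atp8, whole gene, chrM:7766-7969, plus strand: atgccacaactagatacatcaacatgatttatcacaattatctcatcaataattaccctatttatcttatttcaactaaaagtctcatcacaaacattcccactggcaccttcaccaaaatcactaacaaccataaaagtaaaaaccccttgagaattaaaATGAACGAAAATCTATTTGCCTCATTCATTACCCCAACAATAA
mt-Atp6, first 80 bases, chrM:7927-8006, plus strand: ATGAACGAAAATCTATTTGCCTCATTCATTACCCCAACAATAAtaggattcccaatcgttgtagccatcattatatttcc
mt-Nd4l, last 60 bases, chrM:10114-10173, plus strand: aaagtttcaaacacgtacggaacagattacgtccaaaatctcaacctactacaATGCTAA
mt-Nd4, first 60 bases, chrM:10167-10226, plus strand: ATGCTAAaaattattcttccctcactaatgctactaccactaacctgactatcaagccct
mt-Nd5, last 50 bases, chrM:13516-13565, plus strand: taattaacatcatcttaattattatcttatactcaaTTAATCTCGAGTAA
mt-Nd6, last 50 bases, chrM:13552-13601, minus strand: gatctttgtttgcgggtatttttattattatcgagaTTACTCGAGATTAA
The shared stretch is 43 of the 204 bases of mt-Atp8. The labels do not state the strand mode of the counting, so levels of overlapping genes are uncertain, those on opposite strands included.

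All values are TPM, the usual length-normalised unit of transcript abundance, already scaled to gene length and to the same total in each library, so the sequencing depth is unknown and a share gained by some genes is lost by others. From 11013 to 11708 genes had at least 1 TPM, depending on the library. Epas1 had 26.6, 35.1 and 29.4 TPM in KO-labelled libraries, against 23.8, 26.0 and 21.0 TPM in WT-labelled ones, a log2 difference of 0.34 (limma adjusted p = 0.993). It was higher in every KO-labelled library than in any WT-labelled one, which goes against the label, so the groups are called by their labels throughout; whether reads of the deleted part are counted was not tested. Sums over 6 hepatocyte markers were 54897 to 73237 TPM in KO-labelled libraries and 50033 to 58541 TPM in WT-labelled ones, while the muscle markers Ckm, Myh4 and Myh6 were listed at 0 in all 6. Acta1, a muscle actin, was at 0 to 0.048 TPM in the KO-labelled and 0.446 to 1.76 TPM in the WT-labelled libraries, and its part in the results was not tested.

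The share of library TPM listed under mitochondrial mRNAs overlapped between the labels. Summed, it was 21.7%, 21.5% and 16.0% of the library TPM in the KO-labelled libraries, against 18.6%, 24.3% and 20.8% in the WT-labelled ones. The lowest share was in KO replicate 3 and the highest in WT replicate 2. The means were 19.8% ± 3.22 and 21.2% ± 2.89 (SD, n = 3 each), a log2 ratio of the mean sums of -0.10 that became 0.03 without KO replicate 3. In bulk tissue, fewer cells of a type and less RNA per cell cannot be told apart. The rRNAs summed to 0.185%, 0.123% and 0.181% of TPM in KO-labelled libraries and to 0.170%, 0.150% and 0.160% in WT-labelled ones, and the 22 tRNAs to between 0.00774% and 0.0140% of TPM.

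**Figure D1:**
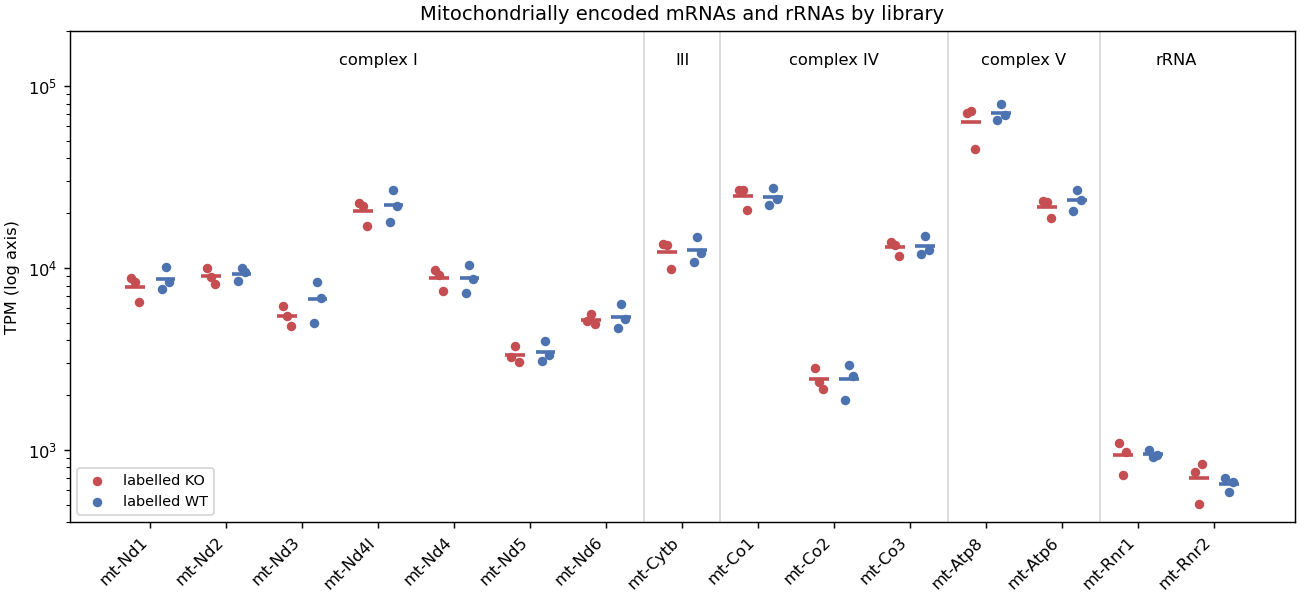
TPM of each of the 13 mitochondrially encoded mRNAs and both rRNAs on a log axis; each point is 1 library and each line the mean of its group of 3, with KO-labelled libraries left of WT-labelled ones. The points of the groups overlap for every gene, and mt-Atp8 stands highest at 45120 to 79952 TPM.

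No mitochondrially encoded gene passed the test between the labels. Of the 37 genes, 19 reached 1 TPM in at least 3 libraries and were tested: the 13 mRNAs, both rRNAs and 4 tRNAs. In the limma fit across all 11440 genes tested, 0 of these 19 had an adjusted p below 0.05 (adjusted p 0.993 to 0.998), against 0.00874% of all tested genes, and 0 had an unadjusted p below 0.05, against 3.15% (0.385% lower in KO and 2.76% higher in KO). With the replicate number as a block, again 0 of 19 passed at an adjusted p, against 0% of all tested genes, and 0 at an unadjusted p, against 6.18% (0.918% lower in KO and 5.26% higher in KO). In 0 of the 19 did the TPM values of the labels not overlap, against 9.08% of all tested genes. Across the 13 mRNAs, log2 differences lay between -0.27 and 0.01, and the 95% intervals of single genes between -0.80 and 0.49.

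Most mRNA estimates lay below 0: 10 of 13 had a log2 difference below 0, against 25.5% of all tested genes, with a median of -0.05 beside 0.09 over all tested genes. As deposited, that sign rested on single libraries, since the median was 0.02 without KO replicate 3 and 0.06 without WT replicate 2. The 13 values are not separate observations, because the mRNAs went up and down together from library to library. After median-ratio scaling, which brought the median of all tested genes to -0.0016, the median over the mRNAs was -0.16. No library was left out on that scale, so whether the sign rests on single libraries there was not tested. By complex, as deposited, 6 of 7 complex I mRNAs were below 0 (median -0.05), mt-Cytb of complex III was at -0.04, 1 of 3 complex IV mRNAs was below 0 (median 0.01) and 2 of 2 complex V mRNAs were below 0 (median -0.16). These medians depended on single libraries too: without KO replicate 3 they were 0.02 for complex I, 0.11 for complex III, 0.09 for complex IV and 0.0015 for complex V, and without WT replicate 2 they were 0.05, 0.09, 0.10 and -0.07. Under quantile normalization the complex III median was 0.04 and that of complex V was -6.1e-05.

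**Figure D2:**
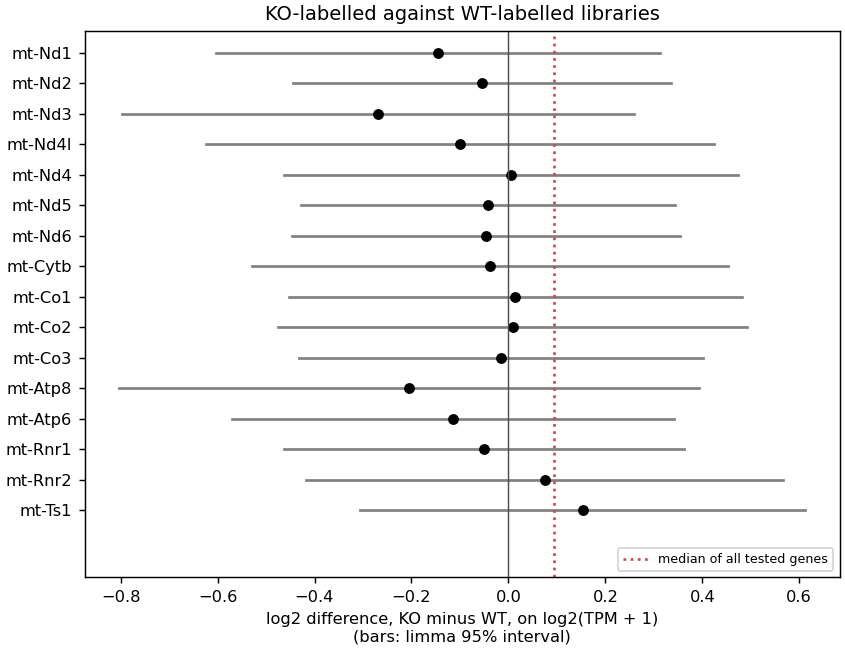
Log2 difference on log2(TPM + 1), KO-labelled minus WT-labelled, for the mRNAs, rRNAs and mt-Ts1; points are limma estimates and bars their 95% intervals (3 libraries a label), and the dotted line is the median of all tested genes, 0.09. Every interval crosses 0.

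The mRNAs varied by library within each label. WT replicate 2 had the highest level of all 13 mRNAs, and KO replicate 3 the lowest of 10; WT replicate 1 had the lowest of the other 3 (mt-Nd4, mt-Nd6 and mt-Co2). Relative to each mRNA's own mean over the 6 libraries, the median log2 level was 0.09, 0.03 and -0.25 in KO replicates 1, 2 and 3, against -0.16, 0.25 and 0.01 in WT replicates 1, 2 and 3. Each label thus held a library above and a library below the mean. The rRNAs did not follow: both were lowest in KO replicate 2 (-0.37 for mt-Rnr1 and -0.43 for mt-Rnr2), and mt-Rnr2 was highest in KO replicate 3 (0.32).

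**Figure D3:**
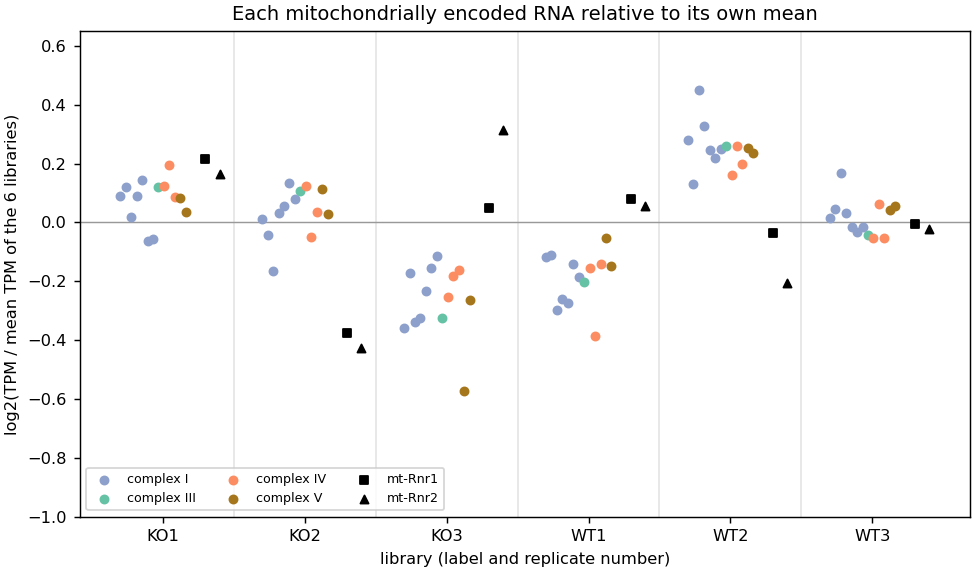
Log2 of TPM over the gene's mean of the 6 libraries, by library, for each mRNA (coloured by complex) and for mt-Rnr1 and mt-Rnr2 (black). All 13 mRNAs lie below 0 in KO replicate 3 and WT replicate 1 and above 0 in WT replicate 2, whereas the rRNAs have another order.

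Complex I, the NADH dehydrogenase that passes electrons into the chain, has 7 subunits encoded here. The gene mt-Nd1 (ENSMUSG00000064341, chrM:2751-3707) was at 8849, 8369 and 6487 TPM in KO-labelled libraries, against 7667, 10093 and 8394 TPM in WT-labelled ones. Its highest value was in WT replicate 2 and its lowest in KO replicate 3, and the labels overlapped (log2 difference -0.15, SE 0.20, limma adjusted p = 0.993). The next gene, mt-Nd2 (chrM:3914-4951), had 9937, 8883 and 8110 TPM in KO-labelled libraries and 8467, 10022 and 9445 TPM in WT-labelled ones. Its spread was the smallest of the 13 mRNAs, with a coefficient of variation of 8.59% over the 6 libraries.

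The gene mt-Nd3 (ENSMUSG00000064360, chrM:9459-9806) had the lowest log2 difference among the mRNAs as deposited. It was not the lowest with its nuclear copy added (-0.13, against -0.21 for mt-Atp8, to which no copy was added). Nor was it the lowest without KO replicate 2 (-0.27, against -0.33 for mt-Atp8). The level of mt-Nd3 was 6165, 5425 and 4816 TPM in KO-labelled libraries, against 4950, 8321 and 6846 TPM in WT-labelled ones. WT replicates 2 and 3 stood above the KO-labelled libraries, but WT replicate 1 lay below KO replicates 1 and 2. Its log2 difference was -0.27 (SE 0.23, 95% interval -0.80 to 0.26, limma adjusted p = 0.993), and it ranged from -0.47 to -0.10 when a library was left out in turn.

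The overlapping pair mt-Nd4l and mt-Nd4 is known to be carried on one shared mRNA. The gene mt-Nd4l (chrM:9877-10173) had 22755, 21873 and 17077 TPM in KO-labelled libraries and 17860, 26805 and 21865 TPM in WT-labelled ones. Its partner mt-Nd4 (chrM:10167-11544) had 9729, 9153 and 7494 TPM in KO-labelled libraries and 7274, 10434 and 8695 TPM in WT-labelled ones. Both were highest in WT replicate 2 and overlapped between the labels, with log2 differences of -0.10 (SE 0.22) and 0.01 (SE 0.20). The ratio of mt-Nd4l to mt-Nd4 was 2.34, 2.39 and 2.28 in KO-labelled libraries and 2.46, 2.57 and 2.51 in WT-labelled ones. That ratio was lower in every KO-labelled library and was not tested. It is one of the 10 of 78 ratios between mRNAs whose labels did not overlap. The TPM values of 9.08% of all tested genes did not overlap either, but that share is for single genes, not for ratios.

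The remaining complex I pair faces each other on opposite strands. The gene mt-Nd5 (chrM:11742-13565) had 3249, 3727 and 3048 TPM in KO-labelled libraries and 3075, 3948 and 3318 TPM in WT-labelled ones. The gene mt-Nd6 (chrM:13552-14070), the mRNA encoded on the minus strand, had 5093, 5596 and 4901 TPM in KO-labelled libraries and 4657, 6298 and 5247 TPM in WT-labelled ones. Both overlapped between the labels (log2 differences -0.04 and -0.05), and mt-Nd6 stayed at 1.50 to 1.61 times mt-Nd5 in the 6 libraries.

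Complex III, which passes electrons from ubiquinol to cytochrome c, has 1 subunit encoded here, cytochrome b. Its gene mt-Cytb (ENSMUSG00000064370, chrM:14145-15288) was at 13461, 13321 and 9885 TPM in KO-labelled libraries, against 10767, 14840 and 12012 TPM in WT-labelled ones. The outer values of both labels overlapped, with KO replicate 3 lowest and WT replicate 2 highest (log2 difference -0.04, SE 0.21). As a share of the summed mRNA TPM, mt-Cytb was 6.20%, 6.20% and 6.16% in KO-labelled libraries and 5.80%, 6.11% and 5.79% in WT-labelled ones, so the shares did not overlap; this was not tested, and with the nuclear copies described below added to the other mRNAs they did overlap (5.26% to 5.37% and 4.95% to 5.34%).

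Complex IV, cytochrome c oxidase, reduces oxygen to water, and its 3 largest subunits are encoded here. The gene of its catalytic subunit, mt-Co1 (ENSMUSG00000064351, chrM:5328-6872), was at 26947, 26920 and 20720 TPM in KO-labelled libraries, against 22171, 27609 and 23830 TPM in WT-labelled ones. Values from both labels were interleaved, with a log2 difference of 0.01 (SE 0.20) that was -0.10 after median-ratio scaling and 0.18 after quantile normalization. The gene mt-Co3 (chrM:8607-9390) had 13895, 13391 and 11684 TPM in KO-labelled libraries and 11863, 15018 and 12595 TPM in WT-labelled ones, a log2 difference of -0.02 (SE 0.18). The gene mt-Co2 (chrM:7013-7696), whose subunit receives the electrons from cytochrome c, had 2804, 2364 and 2155 TPM in KO-labelled libraries and 1871, 2933 and 2556 TPM in WT-labelled ones. It overlapped between labels (log2 difference 0.01, SE 0.21). As deposited, mt-Co2 was the least abundant of the mRNAs, with mt-Co1 at 9.32 to 11.9 times its TPM. However, 86.4% to 89.5% of the combined value of mt-Co2 and its nuclear copy, described below, was listed under the copy. With the copy of each gene added, mt-Co1 was 1.28 to 1.47 times mt-Co2.

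Complex V makes ATP from the proton gradient, and 2 subunits of its membrane part are encoded here, by the overlapping pair printed above. The gene mt-Atp8 (ENSMUSG00000064356, chrM:7766-7969) was at 71178, 72751 and 45120 TPM in KO-labelled libraries, against 64688, 79952 and 69234 TPM in WT-labelled ones. KO replicate 3 stood below the other 5 libraries, and KO replicates 1 and 2 lay within the WT-labelled values (log2 difference -0.21, SE 0.26, limma adjusted p = 0.993). Without KO replicate 3, the log2 difference of mt-Atp8 was 0.02. The gene mt-Atp6 (chrM:7927-8607), whose subunit forms the proton path, had 23209, 23101 and 18883 TPM in KO-labelled libraries and 20440, 26702 and 23523 TPM in WT-labelled ones, a log2 difference of -0.11 (SE 0.19). The ratio of mt-Atp8 to mt-Atp6 was 3.07, 3.15 and 2.39 in KO-labelled libraries and 3.16, 2.99 and 2.94 in WT-labelled ones, so KO replicate 3 also stood apart in this ratio.

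**Figure D4:**
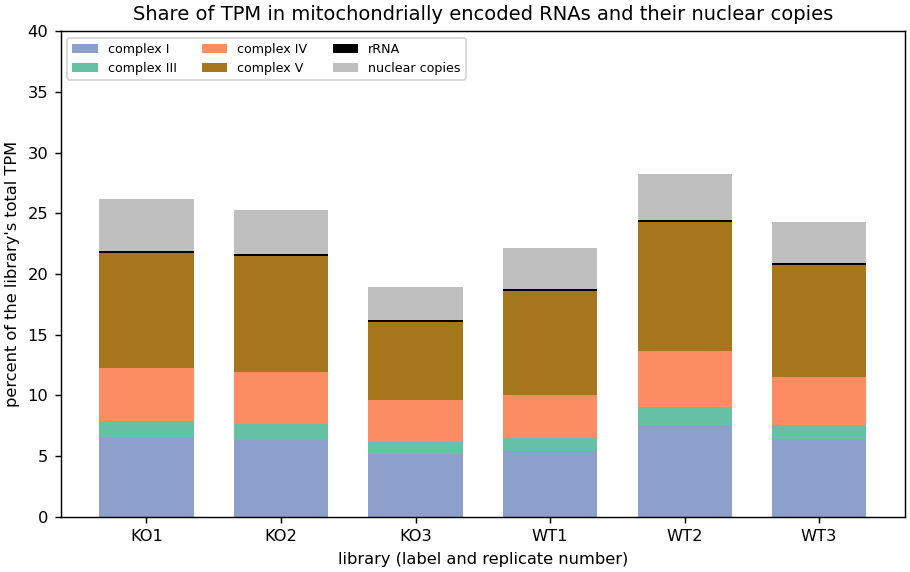
Percent of each library's total TPM in the mRNAs of each respiratory complex, the rRNAs and the nuclear copies described below, stacked, with KO-labelled libraries left of WT-labelled ones. The full stacks reach 26.2%, 25.3% and 18.9% in KO-labelled libraries and 22.2%, 28.3% and 24.3% in WT-labelled ones. Complex V is the tallest layer in each, mostly through mt-Atp8, and layer height does not give the number of mRNA molecules.

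Of the summed mRNA TPM, complex V held 39.9% to 45.8% and complex I 29.0% to 32.4% over the 6 libraries, and the shares of both overlapped between the labels. Most of the complex V share came from mt-Atp8, a gene of 204 bases that averaged 67154 TPM, against 22643 TPM for mt-Atp6. An mRNA that carries more than 1 gene, as that of mt-Nd4l and mt-Nd4 does, is added under each of its genes. Whether the overlapping mt-Atp8 and mt-Atp6 were counted from shared molecules was not tested. Nor was it tested whether the short length of mt-Atp8 raised its TPM. The shares therefore do not rank the complexes by number of mRNA molecules. Complex IV held 20.1%, 19.9% and 21.5% of the mRNA TPM in KO-labelled libraries and 19.3%, 18.8% and 18.8% in WT-labelled ones, without overlap. With the nuclear copies added, its shares overlapped, at 28.5%, 27.4% and 29.7% in KO-labelled libraries and 27.8%, 26.7% and 27.1% in WT-labelled ones. Of the 78 ratios between pairs of mRNAs, 10 did not overlap between labels as deposited and 6 did not with the copies added. The TPM values of 9.08% of all tested genes did not overlap between the labels, but that share is for single genes. No share was computed for ratios between other genes, so these counts have no like background. The 78 ratios share genes and libraries and were not tested.

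The mRNAs covered a wide range of levels per length as deposited, before any nuclear copy was added. Over the 6 libraries, mt-Atp8 averaged 67154 TPM, mt-Co1 24699, mt-Atp6 22643, mt-Nd4l 21373, mt-Co3 13074, mt-Cytb 12381, mt-Nd2 9144, mt-Nd4 8797, mt-Nd1 8310, mt-Nd3 6087, mt-Nd6 5299, mt-Nd5 3394 and mt-Co2 2447 TPM. Only 4 steps of this order separated neighbours whose ranges did not overlap: below mt-Atp8, below mt-Nd4l, below mt-Nd6 and below mt-Nd5. The step below mt-Co2, to the rRNAs, separated ranges as well.

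The rRNAs form the RNA of the mitochondrial ribosome. The small-subunit rRNA gene, mt-Rnr1 (ENSMUSG00000064337, chrM:70-1024), was at 1093, 726 and 975 TPM in KO-labelled libraries, against 996, 919 and 939 TPM in WT-labelled ones. The large-subunit rRNA gene, mt-Rnr2 (ENSMUSG00000064339, chrM:1094-2675), was at 756, 501 and 839 TPM in KO-labelled libraries, against 701, 585 and 664 TPM in WT-labelled ones. For both, the WT-labelled values lay inside the range of the KO-labelled ones, whose SDs were 187 and 176 TPM, against 39.9 and 59.3 TPM in WT-labelled libraries. The log2 differences were -0.05 (SE 0.18) and 0.07 (SE 0.21). Together the rRNAs amounted to 0.571% to 1.13% of the summed mRNA TPM in the 6 libraries, and the labels do not state whether rRNA was removed before sequencing.

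Most tRNAs were listed at 0. Of the 22, 17 were at 0 in all 6 libraries and 5 were above 0 in at least 1. The serine tRNA mt-Ts1 was the highest of the 22, and it lies on the minus strand with its end facing the end of mt-Co1 over 3 bases (chrM:6870-6872), shown in capitals here because strand decides which gene a read there belongs to.
mt-Ts1, whole gene, chrM:6870-6938, minus strand: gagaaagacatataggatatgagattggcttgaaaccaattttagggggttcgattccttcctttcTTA
mt-Co1, last 50 bases, chrM:6823-6872, plus strand: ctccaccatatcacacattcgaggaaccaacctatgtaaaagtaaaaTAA
The level of mt-Ts1 was 68.7, 101.6 and 106.7 TPM in KO-labelled libraries, against 94.7, 75.5 and 75.5 TPM in WT-labelled ones. KO replicate 1 was lowest and KO replicate 3 highest, so the WT-labelled values lay between them (log2 difference 0.15, SE 0.20, limma adjusted p = 0.993). That difference was 0.04 without KO replicate 3 and 0.35 without KO replicate 1. As a percent of mt-Co1, its neighbour on the other strand, mt-Ts1 ran from 0.255% to 0.515%.

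The other 4 tRNAs with a value were low, and each was listed at 0 in at least 1 library. The proline tRNA mt-Tp was at 4.57, 4.50 and 21.6 TPM in KO-labelled libraries, against 3.71, 0 and 19.0 TPM in WT-labelled ones, with replicate 3 highest in both labels. The glutamine tRNA mt-Tq was at 4.06, 0 and 11.5 TPM in KO-labelled libraries, against 3.32, 0 and 0 TPM in WT-labelled ones. The glutamate tRNA mt-Te was at 0, 4.23 and 0 TPM in KO-labelled libraries, against 3.51, 3.28 and 0 TPM in WT-labelled ones. The methionine tRNA mt-Tm, named after its values were seen, was above 0 in WT replicate 1 (3.51 TPM) and WT replicate 2 (3.28 TPM) and was not tested. Among tRNAs of 69 bases, mt-Ts1 was 24.0 times the lowest other value in KO replicate 2, and 27.0 and 23.0 times in WT replicates 1 and 2, close to whole multiples. An adjusted p of 0.993 was the limma result for mt-Tp, mt-Tq and mt-Te alike, and an exact 0 in such a table can also be a failed estimate.

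Several mitochondrial mRNAs have a near-identical copy in the nuclear genome. A stretch of chromosome 1 (minus strand of chr1:24611535-24616197, mm10) holds 7 annotated copies in the order of the genes on mitochondrial DNA. The copy of mt-Co2, Gm28661 (ENSMUSG00000102070, chr1:24614885-24615565), is identical to it over all 681 aligned bases, and the start of both is printed to show that such reads cannot be assigned by sequence.
mt-Co2, first 60 bases, chrM:7013-7072, plus strand: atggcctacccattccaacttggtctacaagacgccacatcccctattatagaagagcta
Gm28661, first 60 bases, chr1:24615506-24615565, minus strand: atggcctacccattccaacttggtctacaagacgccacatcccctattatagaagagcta
Gm28661 was at 19452, 17005 and 13709 TPM in KO-labelled libraries, against 16050, 19839 and 17130 TPM in WT-labelled ones, and held 86.4% to 89.5% of the combined, length-weighted value of the pair. It followed the mRNAs, with KO replicate 3 lowest and WT replicate 2 highest. With the copy added, mt-Co2 averaged 19569 TPM and stood sixth among the mRNAs in place of last. Likewise mt-Co3 averaged 20107 TPM in place of 13074, and mt-Nd3 averaged 10445 TPM in place of 6087 and passed mt-Nd2, mt-Nd4 and mt-Nd1 in the order of levels. With the copy of each gene added, mt-Co1 was 1.28 to 1.47 times mt-Co2.

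The copies of mt-Nd3 and mt-Co1 each differ from their gene at 1 aligned base, in capitals below, and the first 9 of the 492 bases of the mt-Co1 copy lie outside the alignment and are not shown. Positions count from 1 at the first base of the mitochondrial gene, whose base is given first: T3C in the copy of mt-Nd3 and A1066T in the copy of mt-Co1.
mt-Nd3, bases 1 to 33, chrM:9459-9491, plus strand: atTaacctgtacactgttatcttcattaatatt
Gm28438, bases 1 to 33, chr1:24613087-24613119, minus strand: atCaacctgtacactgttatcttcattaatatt
mt-Co1, bases 1063 to 1096, chrM:6390-6423, plus strand: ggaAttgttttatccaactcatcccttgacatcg
Gm29216, bases 10 to 43, chr1:24616155-24616188, minus strand: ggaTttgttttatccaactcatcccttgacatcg
Gm28438 (ENSMUSG00000101939) was at 5523, 4992 and 3218 TPM in KO-labelled libraries, against 4269, 3990 and 4380 TPM in WT-labelled ones, and held 32.2% to 47.7% of the pair with mt-Nd3. Gm29216 (ENSMUSG00000101249) was at 5688, 4280 and 4461 TPM in KO-labelled libraries, against 3860, 4905 and 3820 TPM in WT-labelled ones, and held 4.82% to 6.42% of the pair with mt-Co1. The labels overlapped for both copies.

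The other copies differed in how much they held. Gm28437 (ENSMUSG00000101111, chr1:24613189-24613971), identical to mt-Co3 over 783 bases, was at 8125, 7212 and 5086 TPM in KO-labelled libraries, against 7294, 7269 and 7261 TPM in WT-labelled ones, and held 30.3% to 38.0% of the pair. Gm10925 (ENSMUSG00000100862, chr1:24613974-24614651), identical to mt-Atp6 over 678 bases, was at 3829, 3209 and 367 TPM in KO-labelled libraries, against 2832, 2307 and 878 TPM in WT-labelled ones, and held 1.90% to 14.1% of its pair. Its lowest value in each label was in replicate 3. The copies of mt-Nd4l (Gm10222) and mt-Nd4 (Gm28439), identical over 294 and 876 bases, were listed at 0 in all 6 libraries. Of these copies, 5 were tested and 0 passed at an adjusted p in limma, against 0.00874% of all tested genes. At an unadjusted p below 0.05, 0 passed, against 3.15%. Added up, the copies were 4.26%, 3.67% and 2.68% of TPM in KO-labelled libraries, against 3.43%, 3.83% and 3.35% in WT-labelled ones, and members with copies made up 26.2%, 25.3% and 18.9%, against 22.2%, 28.3% and 24.3%.

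**Figure D5:**
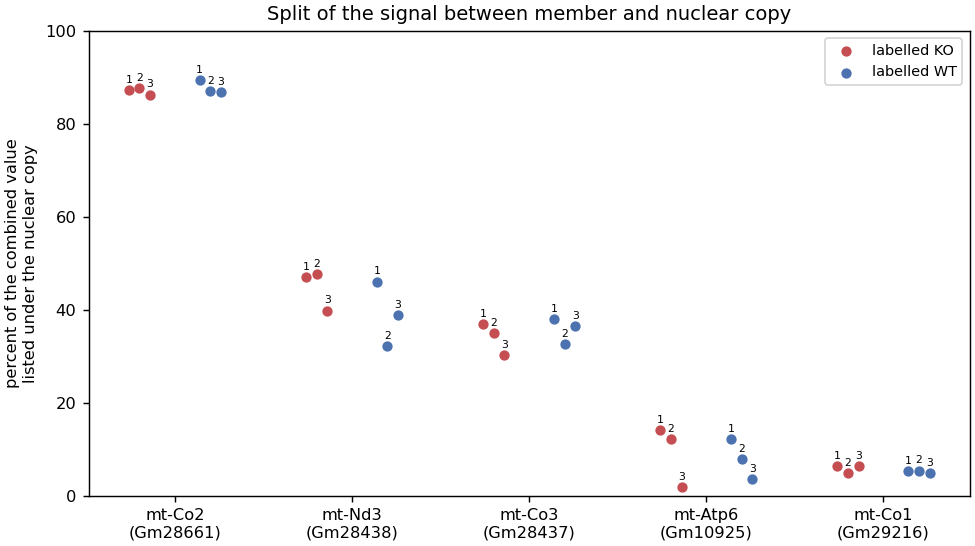
Percent of the combined, length-weighted TPM of an mRNA and its chromosome 1 copy that is listed under the copy; each point is 1 library, numbered by replicate, with KO-labelled libraries left of WT-labelled ones. The copy holds 86.4% to 89.5% of the pair for mt-Co2 and at most 6.42% for mt-Co1.

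The nuclear genes that serve mitochondrial DNA and its RNA were read from the same fit. At an adjusted p below 0.05, 0 of them passed, against 0.00874% of all tested genes. Of 18 tested genes for transcription and replication of mitochondrial DNA, 0 had an unadjusted p below 0.05 and 1, Polrmt, was higher at that level with the replicate block, against 3.15% and 6.18% of all tested genes. The median log2 difference of the list was 0.07. Polrmt, the mitochondrial RNA polymerase, was at 6.22, 4.35 and 5.30 TPM in KO-labelled libraries, against 4.49, 3.53 and 3.53 TPM in WT-labelled ones. Its values overlapped, as KO replicate 2 lay below WT replicate 1 (log2 difference 0.37, SE 0.16, limma adjusted p = 0.993). Replicates 1, 2 and 3 of KO each exceeded the WT replicate with their own number, but the labels do not pair libraries by number. How many of all tested genes did the same was not counted. Tfam, which packages the DNA and starts its transcription, had 31.4, 34.1 and 28.8 TPM in KO-labelled libraries and 35.0, 36.6 and 23.3 TPM in WT-labelled ones. Tfb2m, a transcription initiation factor, had 17.4, 17.1 and 14.6 TPM in KO-labelled libraries and 15.4, 17.2 and 18.5 TPM in WT-labelled ones. Both overlapped between the labels.

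Among 42 tested genes for processing, modification and decay of mitochondrial RNA, 3 were higher and 0 lower at an unadjusted p below 0.05, against 2.76% higher and 0.385% lower of all tested genes, with a median log2 difference of 0.05. The 3 were the tRNA-modifying enzymes Gtpbp3, Cdk5rap1 and Trit1. Gtpbp3 was at 2.87, 3.56 and 3.03 TPM in KO-labelled libraries, against 1.88, 1.98 and 2.40 TPM in WT-labelled ones, without overlap (log2 difference 0.43, SE 0.15, limma adjusted p = 0.993). Cdk5rap1 and Trit1 had log2 differences of 0.57 and 0.40. With the replicate block, 1 of the 3, Gtpbp3, stayed below that level, against 5.26% of all tested genes higher. The mRNA-stabilising partners Lrpprc and Slirp had log2 differences of 0.15 (SE 0.11) and 0.26 (SE 0.22).

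Of 10 tested regulators of mitochondrial biogenesis, 0 had an unadjusted p below 0.05, with or without the block (median 0.12). Of all tested genes, 3.15% did without the block and 6.18% with it. Among the regulators, the smallest p without the block was that of the transcription factor Yy1 (log2 difference 0.22, SE 0.14, limma adjusted p = 0.993). Ppargc1a, the coactivator PGC-1α, was at 3.21, 2.06 and 1.94 TPM in KO-labelled libraries, against 1.13, 3.11 and 2.54 TPM in WT-labelled ones, with the labels interleaved. Of 21 tested mitochondrial aminoacyl-tRNA synthetases and related amidotransferase genes, 0 were higher and 1 lower at an unadjusted p below 0.05, against 2.76% higher and 0.385% lower of all tested genes (median 0.04). The lower gene was Gatb, a subunit of the enzyme that makes glutaminyl-tRNA in mitochondria, at 19.6, 15.7 and 15.0 TPM in KO-labelled libraries, against 30.4, 22.5 and 20.5 TPM in WT-labelled ones, lower in every KO-labelled library (log2 difference -0.51, SE 0.18, limma adjusted p = 0.993). With the block, Gatb stayed below that level and Fars2, the phenylalanine enzyme, was higher (log2 difference 0.42, SE 0.21), against 0.918% lower and 5.26% higher of all tested genes.

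The nuclear subunits of the same complexes had medians a little above 0. The median log2 difference was 0.08 over 36 complex I, 0.04 over 4 complex II, 0.04 over 9 complex III, 0.07 over 12 complex IV and 0.08 over 15 complex V genes, beside 0.09 over all tested genes, and after median-ratio scaling each was below 0 (-0.07 to -0.03). At an unadjusted p below 0.05, 1 of the 36 complex I subunits was higher, Ndufc1, against 2.76% of all tested genes, which is near that share, and 0 of the other subunits passed. Ndufc1 was at 86.1, 75.1 and 85.1 TPM in KO-labelled libraries, against 64.1, 59.3 and 67.7 TPM in WT-labelled ones, without overlap (log2 difference 0.36, SE 0.12, limma adjusted p = 0.993). With the block, Ndufc1 and Ndufs4 (log2 difference 0.25, SE 0.14) were higher, 2 of 36, against 5.26% of all tested genes. The smallest p of the other complexes belonged to Sdhd, Uqcrh, Cox5b and Atp5o, with log2 differences of 0.12, 0.08, 0.16 and 0.12. The difference between nuclear and mitochondrial subunits of a complex was not tested.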

How the data were processed

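The authors deposited 1 table of gene-level TPM for 6 liver libraries; the submitters' processing notes list the tools HISAT2, fastp, featureCounts, limma and DESeq2 and the build mm10, without versions or order. Of 54600 rows, 54323 carried an Ensembl identifier and 51492 matched a symbol. The members and gene lists were chosen with earlier results of these data known. From the deposited TPM, log2(TPM + 1) was fitted across the 11440 genes that reached 1 TPM in 3 or more libraries (limma 3.58.1, R 4.3.3, variance trend, two-sided, Benjamini-Hochberg adjusted over all of them). The script was tested on simulated data. A fold on this scale understates the change of low genes, and with 3 against 3 an exact permutation test cannot go below p = 0.10. All mRNAs, rRNAs and tRNAs that passed the filter, preset factors and the chromosome 1 copies with a value are named. From each list of nuclear genes, the member or members with the smallest p are named (up to 4, and Fars2 and Ndufs4 by their rank in it). Library pairs had Spearman correlations of 0.945 to 0.978 and at most 0.0615% identical values. No library thus duplicated another, and each was treated as 1 replicate. Between libraries that share a number, deviations from the group mean correlated at 0.157, 0.408 and 0.381, and those of other pairs at -0.369 to 0.026. Deviations within a group sum to 0, which ties these correlations to one another. The labels state no pairing, and whether the libraries are paired was not tested. Members were aligned to GENCODE M21 transcripts with BLAST 2.17.0. The chromosome 1 copies were added to members weighted by length. Less similar nuclear matches were not added. The most abundant of them, Gm13340, was 97.6% identical to mt-Co1 over 1545 bases and averaged 80.1 TPM.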

Additional observations from a re-analysis of the deposited data

How the results depend on the processing

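The number of mitochondrially encoded genes called was 0 under every one of the 20 alternatives. Of 377 values of single members under an alternative, 329 kept their direction and 48 turned. Median-ratio scaling turned mt-Nd4 to -0.11, mt-Co1 to -0.10, mt-Co2 to -0.10 and mt-Rnr2 to -0.037, and gave the same values with the replicate block. Scaling to the nuclear total, with or without the block, turned mt-Nd4 to -0.021, mt-Co1 to -0.012 and mt-Co2 to -0.017, and leaving out the 20 most abundant nuclear genes as well turned them to -0.062, -0.053 and -0.058. The nuclear total included the chromosome 1 copies, which held 2.68% to 4.26% of library TPM. Quantile normalization turned mt-Nd4 to -0.085, mt-Nd6 to 0.020, mt-Cytb to 0.040, mt-Co2 to -0.022, mt-Co3 to 0.12 and mt-Atp6 to 0.21. Adding the nuclear copies, chosen after seeing the data, turned mt-Co2 to -0.077. Leaving out 1 library in turn gave ranges of -0.13 to 0.016 for mt-Nd2, -0.25 to 0.046 for mt-Nd4l, -0.12 to 0.14 for mt-Nd4, -0.12 to 0.060 for mt-Nd5, -0.15 to 0.070 for mt-Nd6, -0.14 to 0.11 for mt-Cytb, -0.056 to 0.14 for mt-Co1, -0.17 to 0.15 for mt-Co2, -0.086 to 0.084 for mt-Co3, -0.33 to 0.019 for mt-Atp8, -0.18 to 0.12 for mt-Rnr1, -0.074 to 0.30 for mt-Rnr2 and -0.14 to 2.03 for mt-Tp. The number of members with an unadjusted p below 0.05 was 0 to 1 (mt-Tq without KO replicate 2), and the number of all tested genes called was 0 to 2. That number was 1 in the fit as reported and 0 with a pseudocount of 5, no filter, a filter of 5 TPM, quantile normalization, and the replicate block alone or with either scaling; the cause was not tested. Members that kept their sign ranged from -0.23 to -0.0091 (mt-Nd1), -0.47 to -0.098 (mt-Nd3), -0.21 to -0.016 (mt-Atp6) and 0.037 to 0.35 (mt-Ts1) when a library was left out. The low tRNAs mt-Tq (0.46 to 2.29) and mt-Te (-1.42 to -0.23) kept theirs as well. The replicate block changed no call of a member; for the lists of nuclear genes its counts at an unadjusted p stand beside them in the text. The filter of 5 TPM left mt-Tq, mt-Te and mt-Tp untested. A fit without both KO replicate 3 and WT replicate 2 was tried after the data were seen and is not given, because those libraries were picked by their mitochondrial RNA level. Depth is unknown, but in 3 libraries mt-Ts1 was close to a whole multiple of the lowest tRNA value of its length, so low tRNA values moved in coarse steps.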
